A study of Mus musculus with 36 samples.

Results

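Fatty acids are the main fuel of the adult heart. They are taken up through lipoprotein lipase and membrane transporters, carried by a cytosolic binding protein, activated to acyl-CoA, passed into mitochondria by the carnitine shuttle and shortened in the beta-oxidation spiral, whose electrons reach the respiratory chain through the electron transfer flavoprotein. The genes of this route are known targets of the nuclear receptors PPAR-alpha and the estrogen-related receptors with the coactivator PGC-1-alpha. The 33 genes described here were listed by name from that route, with earlier results of these data known. Each was read from the brightest of its probe sets by the mean over all 36 arrays. Of the 33, 31 had a probe set named for that gene alone, all 31 passed the filter on low signal, and they were tested among 12626 genes. Acsl1, a long-chain acyl-CoA synthetase, and Cpt1b, the carnitine palmitoyltransferase of the outer mitochondrial membrane, were not analysed here.

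The arrays measured messenger RNA in the left ventricle of mice on a C57black background that carried an activated signalling protein in cardiac muscle cells. The transgenes were HRas-v12, an activated small GTPase upstream of ERK, MKK3bE, an activated kinase upstream of p38, and MKK7D, an activated kinase upstream of JNK. Each was a floxed transgene under the alpha-MHC promoter, switched on by Mer-Cre-Mer, a tamoxifen-dependent recombinase under the same promoter, so that transgenic mice carried both constructs and their non-transgenic littermates carried neither. All groups, controls included, received tamoxifen at 20 mg/kg by intraperitoneal injection on 3 consecutive days from 12 weeks of age, and hearts were taken early, 4 to 7 days after the first injection, or late, 2 to 4 weeks after it. HRas-v12 arrays comprised 2 female and 3 male early and 3 female and 3 male late, and MKK3bE arrays comprised 2 female early, 2 female late and 3 male late. Both lines were compared with 3 male and 3 female shared control arrays whose labels give no time, and these controls served both times. MKK7D arrays were all labelled female, 3 early and 3 late, each time with 3 control arrays of its own. No group had Mer-Cre-Mer without a kinase transgene, so an effect of the activated recombinase and an effect of the kinase cannot be told apart. The labels do not say that arrays of a group came from separate animals, so a p-value here reflects how far the arrays of a group spread, which may be technical.

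All values are array signals on a linear scale, scaled so that each array has a trimmed mean of 2500. Changes are log2 differences between group means of log2(signal + 32), with the standard error (SE) and the adjusted p of limma over all 12626 genes, and a gene was called at an adjusted p under 0.05. Changes given for both sexes average the difference found in females with that found in males. Signals of different genes come from different probes and were not compared with each other.

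Several arrays stood apart from their labels. The Esr1 probe set, which also reads the estrogen receptor part of Mer-Cre-Mer, ranged from 294 to 7943 in the shared controls and the early MKK7D controls and from 12437 to 155949 in the transgenic arrays, with exceptions. It was 688 on the array labelled HRas-v12 female early 3, 2915 on the array labelled HRas-v12 male late 1 and 1327 on that labelled HRas-v12 male late 3. It was 106402 and 91291 on the arrays labelled MKK7D control late 8 and 9, against 953 on MKK7D control late 10, and the array labelled MKK7D female control early 1 had an Eif2s3y signal, from the Y chromosome, of 6018. For the fatty acid genes, most counts of calls that rest on these 6 arrays are given with and without them, as are most counts given for the other lists. Counts of genes that do not overlap between groups, and the calls in MKK7D early, are given with all 6 in. Cardiac muscle markers were high throughout: the summed signal of 12 cardiac muscle genes was 1763569 to 2284249 in the shared controls and at least 1147081 on every HRas-v12 early array. Summed markers of fat cells were 1206 to 22531 and of skeletal muscle 1565 to 4316 over all arrays, and no marker was at 0. The atrial markers varied widely: Myl7 ran from 271 to 49696 and Sln from 30 to 28188 over all arrays, and the sum of the 4 atrial genes was 8077 to 234918 among the female controls alone. Their part in the results was not tested. In this bulk tissue, fewer cells of a type and less RNA per cell cannot be told apart.

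Early after induction of HRas-v12, most of the fatty acid genes fell. In both sexes together, 26 of the 31 genes were called lower and none higher, with a median log2 change of -0.83, where 18.7% of all genes tested were called lower and the median over all genes was -0.04. In all, 29 of the 31 were at an unadjusted p under 0.05. Every array of HRas-v12 early lay below every control array for 7 of the 31 genes, against 2.76% of all genes. The array nearest to the controls was that labelled HRas-v12 female early 3, whose median over the 31 genes was -0.14 from the female control mean, against -0.90 on HRas-v12 female early 1 and -1.36, -0.95 and -1.25 on the 3 male arrays. Without the 6 arrays in doubt, 30 genes were called lower, with a median of -1.01, where 22.7% of all genes were, and Pdk4 was the exception. Without HRas-v12 female early 1, which leaves that doubted array as the lone female, 15 were called. The size of the change in the brightest genes depended on the scaling: with quantile normalization 5 of the 26 changes shrank by over 1.5 times, with Lpl at -0.12, Acadl at -0.15, Cd36 at -0.18, Hadhb at -0.40 and Etfb at -0.50, and Acadl and Cd36 were no longer called.

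**Figure D1:**
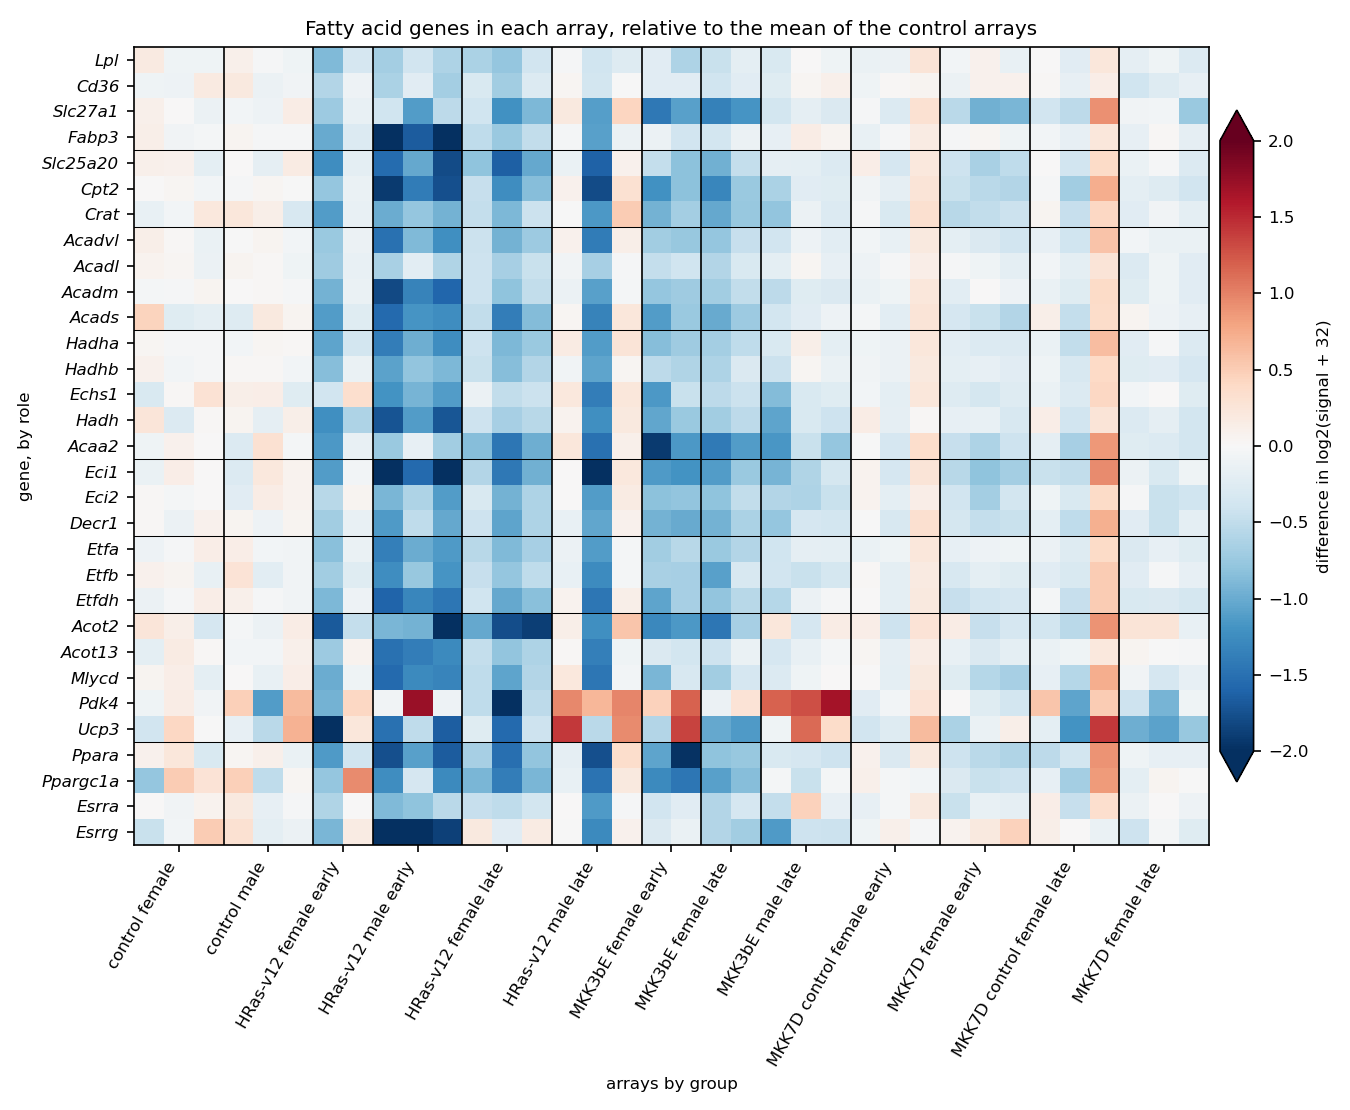
Log2 deviation of the signal of each of the 31 fatty acid genes (vertical, ordered by role) on each of the 36 arrays (horizontal, by group) from the mean of the control arrays of the same sex or line. Blue squares are below the control mean and red squares above it: the 3 HRas-v12 male early arrays are blue over nearly the whole column, with medians of -0.95 to -1.36, while the array labelled HRas-v12 female early 3 and the arrays labelled HRas-v12 male late 1 and 4 stay near the control mean.

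Among the uptake genes, Fabp3 changed most. It encodes the heart-type fatty acid binding protein that carries fatty acids through the cytosol of muscle cells. Its signal was 184626 to 213030 on the 6 shared control arrays, with a median of 190558, while it was 98461 and 162311 on the HRas-v12 female early arrays and 45950, 58902 and 42473 on the male ones. All 5 HRas-v12 early arrays were below all controls, the males furthest. The change was -1.30 (SE 0.15), a 2.46-fold fall (adjusted p = 2.57e-06). Lpl, the lipoprotein lipase that frees fatty acids from circulating triglyceride, was 152678 to 208627 in the controls and 99920 to 146223 on the HRas-v12 early arrays, again with no overlap, and fell by 0.58 (SE 0.12, adjusted p = 0.000525). Cd36, the fatty acid translocase of the cell membrane, fell by 0.43 (SE 0.11, adjusted p = 0.00447), and its other probe sets gave changes of -0.60 and -1.25. Slc27a1, a membrane transporter with acyl-CoA synthetase activity, had a change of -0.56 that was not called (adjusted p = 0.0775).

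The 3 measured carnitine shuttle genes all fell, with a median change of -1.07. Slc25a20, the carnitine-acylcarnitine translocase of the inner mitochondrial membrane, was 25917 to 34990 in the controls, 13700 and 28344 on the female early arrays and 10091, 14363 and 8463 on the male early arrays. The array labelled HRas-v12 female early 3 lay inside the control range and the other 4 lay below it. The change was -1.09 (SE 0.23, adjusted p = 0.000853). Cpt2, which turns acylcarnitine back into acyl-CoA in the matrix, fell 2.1-fold, and Crat, the carnitine acetyltransferase, fell 1.7-fold.

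All 4 acyl-CoA dehydrogenases, the enzymes that open each round of the spiral for chains of different length, were called lower, with a median of -0.91. Acadm, for medium chains, was tight in the controls, from 127857 to 137158. It was 68157 and 119446 on the HRas-v12 female early arrays and 38303, 52602 and 44277 on the male ones, so that every early array was below every control. Its change was -1.06 (SE 0.16, adjusted p = 3.78e-05). Acads, for short chains, fell by 1.00 (SE 0.22), Acadvl, for very long chains, by 0.82 (SE 0.20) and Acadl, for long chains, by 0.46 (SE 0.12).

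Hadha and Hadhb encode the alpha and beta subunits of the mitochondrial trifunctional protein, which carries out the later steps on long chains. The genes lie head to head on mouse chromosome 5, with RefSeq transcript starts (GRCm38.p6) at 30154980 for Hadha on the minus strand and at 30155253 for Hadhb on the plus strand, 273 bases apart. The bases between these starts are shown because upstream windows of both genes share them, and both genes are measured here. The plus strand reads 5′ to 3′, with capitals marking the 228 bases that lie in the RefSeq promoter windows of both genes.
Hadha to Hadhb, chr5:30154981-30155252: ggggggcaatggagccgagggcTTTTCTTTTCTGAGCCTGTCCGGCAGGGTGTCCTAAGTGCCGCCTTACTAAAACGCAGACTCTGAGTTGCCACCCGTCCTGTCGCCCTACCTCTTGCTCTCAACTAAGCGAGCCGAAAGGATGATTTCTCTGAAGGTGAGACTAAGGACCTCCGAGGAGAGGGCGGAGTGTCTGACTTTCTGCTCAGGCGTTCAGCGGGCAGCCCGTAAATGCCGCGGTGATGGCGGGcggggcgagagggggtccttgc

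Both genes of this pair fell early in HRas-v12. Hadha was 76691 to 96813 in the controls and 44973, 73067, 30644, 40697 and 33642 on the HRas-v12 early arrays, and Hadhb was 116642 to 135506 against 70834, 115249, 57877, 70519 and 65322, in the order female 1 and 3 and male 1, 2 and 3. Neither gene overlapped between the groups, and in both the array labelled HRas-v12 female early 3 was nearest to the controls. The changes were -0.96 (SE 0.19, adjusted p = 0.000553) for Hadha and -0.71 (SE 0.16, adjusted p = 0.00124) for Hadhb. Hadh, the 3-hydroxyacyl-CoA dehydrogenase for shorter chains, fell 2.33-fold without overlap, from a control range of 104931 to 154575 to 36103 to 84973. Its probe set is of a kind that can also bind related transcripts. Echs1, the short-chain enoyl-CoA hydratase, fell by 0.55 (SE 0.21, adjusted p = 0.0468), the highest adjusted p of the 26 calls, and the call was kept in 9 of 22 alternative settings. Acaa2, the thiolase that ends the round, had a change of -0.60 that was not called (adjusted p = 0.0821).

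Genes that handle double bonds and pass on electrons were also lower early in HRas-v12. Eci1, an enoyl-CoA isomerase, fell 2.4-fold, Decr1, the 2,4-dienoyl-CoA reductase, fell 1.57-fold and Eci2, a related isomerase, fell 1.48-fold. Of these, Decr1 was lower on every HRas-v12 early array than on every control. The subunits of the electron transfer flavoprotein, Etfa and Etfb, fell by 0.83 (SE 0.15) and 0.77 (SE 0.18), and Etfdh, the oxidoreductase that hands their electrons to ubiquinone, fell by 0.98 (SE 0.21), with adjusted p = 0.00025, 0.00179 and 0.00095.

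Of the 5 genes of thioester cleavage, fuel choice and uncoupling, 3 were called lower. Acot2, a mitochondrial acyl-CoA thioesterase, fell 2.3-fold, Acot13, a further thioesterase, fell 1.81-fold and Mlycd, which removes malonyl-CoA, the inhibitor of fatty acid entry into mitochondria, fell 1.95-fold. Pdk4, the kinase that shuts pyruvate out of oxidation, stood apart: its change was 0.13 (SE 0.36, adjusted p = 0.819). Its signal was 17794 and 45314 on the female early arrays and 19316, 67316 and 18970 on the male ones, against 9346 to 37960 in the controls. Thus 1 array of each sex lay above the control range and the others inside it. The female array above it was the doubted one labelled HRas-v12 female early 3. HRas-v12 female early 1, at 17794, was below the female controls at 32202 to 37960. Ucp3, a mitochondrial carrier of the uncoupling protein family, had a change of -1.05 with an SE of 0.45 (adjusted p = 0.0714), and its other probe set above the filter gave 0.19.

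Of the 4 regulators of the route, 3 were called lower. Ppara, which encodes PPAR-alpha, was 9232 to 18732 in the controls, 7239 and 12123 on the HRas-v12 female early arrays and 2968, 4753 and 3158 on the male early arrays. Only the array labelled HRas-v12 female early 3 lay within the range of all controls, above the male ones at 9232 to 10852. Both female early arrays were below the female controls at 12940 to 18732. Its change was -1.14 (SE 0.27, adjusted p = 0.00237). Esrrg, which encodes estrogen-related receptor gamma, was 6363 to 15079 in the controls, 4615 and 9686 on the female early arrays and 2744, 2980 and 3326 on the male early arrays, a fall of 2.28-fold in both sexes together (adjusted p = 0.000178). Its other probe sets gave -0.88 and -0.20. Esrra, the alpha receptor of that family, fell 1.43-fold (adjusted p = 0.0255), and Ppargc1a, which encodes PGC-1-alpha, had a change of -0.43 that was not called (adjusted p = 0.284).

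**Figure D2:**
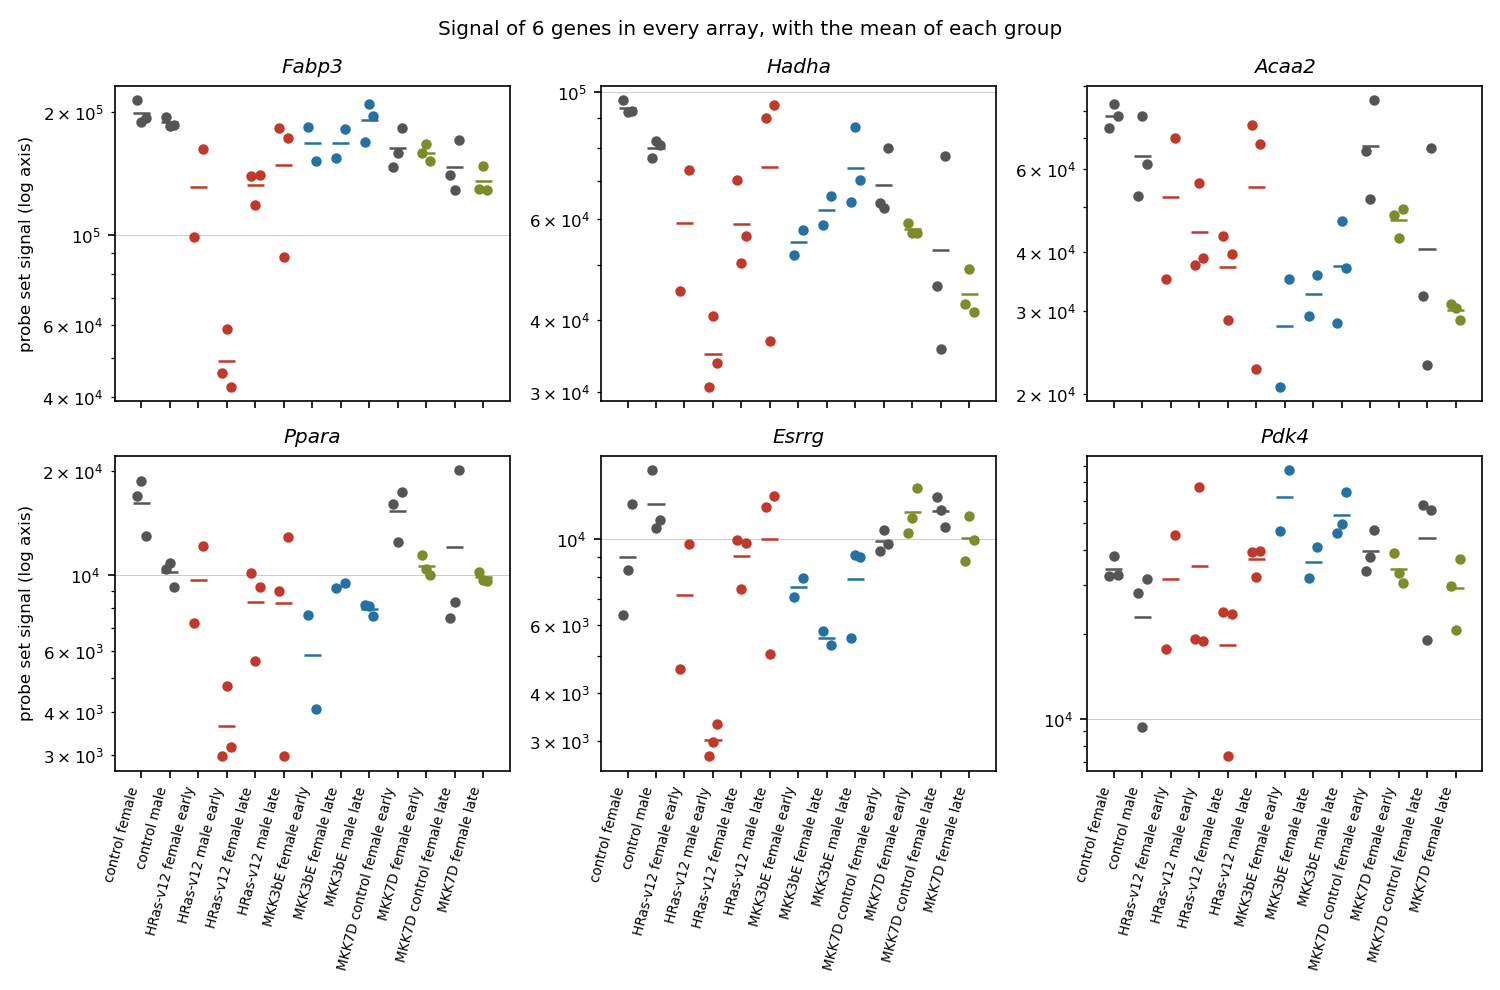
Signal (log axis) of Fabp3, Hadha, Acaa2, Ppara, Esrrg and Pdk4 on every array by group, each point 1 array and each bar the group mean. Fabp3 drops to 42473 to 58902 on the HRas-v12 male early arrays but stays at 151641 or above on all MKK3bE arrays, whereas Acaa2 is at 46666 or below on every MKK3bE array.

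Other cell types moved in the same arrays. Early in HRas-v12, where 15.1% of all genes were called higher, 12 of 12 cardiac muscle markers were called lower, with a median of -0.54, and 9 of 10 endothelial markers, with a median of -0.66. Of the macrophage markers 8 of 11 were called higher (median 1.01), and of the fibroblast markers 5 of 9 (median 0.68). The summed macrophage markers were 64692 to 95599 in the shared controls, 60324 to 152591 on the HRas-v12 female early arrays and 193016 to 238780 on the male ones. With the arrays in doubt left out, these counts were 12 of 12, 10 of 10, 10 of 11 and 7 of 9. The part of these shifts in the fatty acid gene changes was not tested. Myl2 (-0.72) and Myh6 (-0.55), genes of the cardiac contractile apparatus, were among the markers that fell.

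Late after HRas-v12 induction, 11 of the 31 genes were called lower and none higher, with a median change of -0.50, where 4.66% of all genes were called lower and their median was 0.02. At an unadjusted p under 0.05 there were 26. Fabp3 alone was lower on every late array than on every control (0.832% of all genes were). The called genes were Lpl, Fabp3, Slc25a20, Acadl, Acadm, Acads, Hadhb, Etfa, Etfb, Acot2 and Acot13, from every role but the enzymes for double bonds and the regulators. Fabp3 was 138969, 118249 and 140265 on the female late arrays and 182582, 88108 and 172486 on the male ones, a change of -0.50 (SE 0.14, adjusted p = 0.0274). Slc25a20 changed by -0.86 (SE 0.22, adjusted p = 0.0202) and Acadm by -0.49 (SE 0.15, adjusted p = 0.0358). Hadha (-0.46, adjusted p = 0.0945), Ppara (-0.76, adjusted p = 0.0595) and Acaa2 (-0.73, adjusted p = 0.0579) were not called. With quantile normalization Slc25a20 was the only call, and Fabp3 was at -0.13 and Acadm at -0.17.

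The late male HRas-v12 arrays lay far from each other. Over the 31 genes, the median deviation from the male control mean was 0.00 on the array labelled HRas-v12 male late 1, -1.22 on that labelled HRas-v12 male late 3 and 0.12 on HRas-v12 male late 4, while the 3 female late arrays were at -0.46, -0.95 and -0.61. Hadha shows the split: 90187, 36806 and 94853 on the male late arrays against 76691 to 82054 in the male controls. The Esr1 signal was 2915, 1327 and 155949 on the same arrays, so the lowered array was not the one with the high Esr1 signal. The fits without the arrays in doubt keep only male late 4, which lay near the controls. The count of 11 rested on single arrays. No gene was called without HRas-v12 female late 3 or without the array labelled HRas-v12 male late 3, while 22 were called without that labelled male late 1 and 26 without male late 4. Leaving out control male 1, 2 or 5 gave 2, 6 and 5 calls, control female 4, 1 or 2 gave 5, 4 and 5, and female late 4 gave 4. Without the 6 arrays in doubt no gene was called, where 0.578% of all genes were called lower, and the median was -0.31, with 1 male late array left.

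Markers of other cells moved late in HRas-v12 as well. Of the cardiac muscle markers 9 of 12 were called lower (median -0.36) and of the endothelial ones 2 of 10, while 3 of 9 fibroblast (median 0.59) and 2 of 11 macrophage markers (median 0.68) were called higher, where 4.86% of all genes were. The summed macrophage markers were 111652 to 160358 on the female late arrays and 54163 to 305683 on the male ones. Without the arrays in doubt 1 of these markers, of the fibroblast list, was called. Their part in the fatty acid gene changes was not tested.

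**Figure D3:**
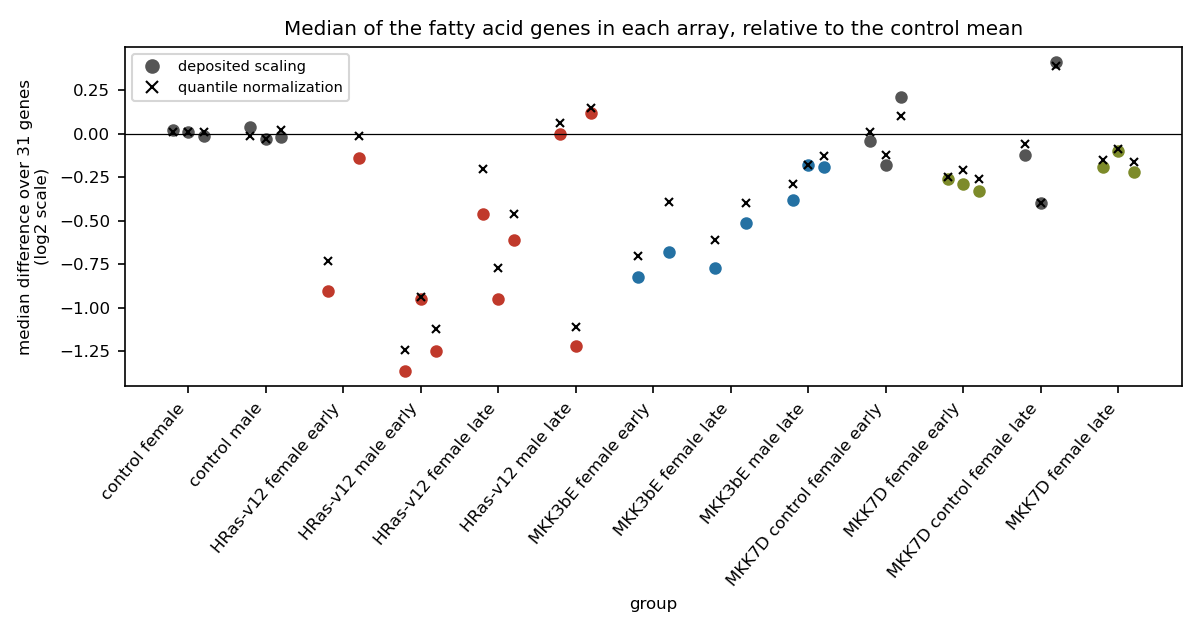
Median log2 deviation of the 31 fatty acid genes from the matched control mean on each array, with the deposited scaling and after quantile normalization. The array labelled HRas-v12 male late 3 sits at -1.22 beside male late 1 and 4 at 0.00 and 0.12, and MKK7D control late 10 at 0.41 beside the arrays labelled late control 8 and 9 at -0.12 and -0.40.

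Between the times, 4 genes rose from early to late HRas-v12, where 6.91% of all genes were called higher. Esrrg rose by 1.02 (SE 0.21, adjusted p = 0.00267), Fabp3 by 0.80 (SE 0.15, adjusted p = 0.00107), Hadh by 0.79 (SE 0.19, adjusted p = 0.00979) and Acadm by 0.57 (SE 0.16, adjusted p = 0.018). The median over the 31 genes was 0.27, against 0.06 over all genes, and 6 genes were at an unadjusted p under 0.05. The number depended on the arrays in doubt. It was 19 without the array labelled HRas-v12 male late 3, 7 without that labelled HRas-v12 female early 3, 1 without HRas-v12 female early 1, and 24 with a median of 0.71 without all 6, where 14.3% of all genes were called higher. Of these 4 genes, Esrrg was back within the control range on all late arrays but the one labelled male late 3, at 5037, the only late array outside it. Its other probe sets were at -0.88 and -0.20 against control early and at -0.64 and 0.30 late.

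The early fall differed between the sexes for 2 genes, where 0.808% of all genes were called lower in males than in females. Fabp3 changed by -1.95 in males and -0.65 in females, a difference of -1.31 (SE 0.29, adjusted p = 0.0268). Esrrg changed by -2.01 in males and -0.37 in females, a difference of -1.63 (SE 0.42, adjusted p = 0.0492). The median difference over the 31 genes was -0.63, and 9 were at an unadjusted p under 0.05. The female group held only 2 arrays, among them the array labelled HRas-v12 female early 3. Without HRas-v12 female early 1, 6 genes were called. No gene was called without any 1 of control male 1, 2 and 5, control female 4 and 1, the array labelled HRas-v12 female early 3 and HRas-v12 male early 1, and 1 was called without HRas-v12 male early 2. Without all 6 arrays in doubt the female group was 1 array, assumed to vary like the other groups. The median difference was then -0.21 and, of the 31 genes, only Fabp3 was called, at -0.95 (adjusted p = 0.0247), where 0.554% of all genes were called lower. For 16 of the 22 alternative settings the call on Esrrg was lost.

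In the late change, 0 genes differed between the sexes by limma, where 0% of all genes were called, and 2 of the 31 were at an unadjusted p under 0.05. The largest differences were 1.95 (SE 0.69) for Pdk4 and 1.38 for Acot2. Without the arrays in doubt, which leaves HRas-v12 male late 4 as the lone male array, assumed to vary like the other groups, 7 genes were called with a median of 0.78, where 1.13% of all genes were called higher. They included Acot2 at 2.13 (adjusted p = 0.0211) and Hadha at 0.94 (adjusted p = 0.0214), higher in the male.

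Early in MKK3bE, Acaa2, Ppara, Slc27a1 and Decr1 fell. In females, the only sex at this time, 4 of the 31 genes were called lower and none higher, with a median of -0.74, where 2.78% of all genes were called lower. The 2 early arrays limit the precision: 22 genes were at an unadjusted p under 0.05, and for 28 both arrays were below all 3 female controls, as for 22.6% of all genes. Acaa2 was 73473, 82620 and 77990 in the female controls (mean 78028 ± 4574 SD, n = 3) and 20760 and 35056 on the MKK3bE early arrays (mean 27908 ± 10108 SD, n = 2), and fell 2.89-fold (adjusted p = 0.0193). Ppara was 12940 to 18732 in these controls and 7667 and 4064 in MKK3bE early, a 2.86-fold fall (adjusted p = 0.025). Slc27a1 fell 2.39-fold (adjusted p = 0.035), from 9251 to 10652 down to 3684 and 4659, and Decr1 fell 1.96-fold (adjusted p = 0.0394). None of these 4 genes overlapped between MKK3bE early and the controls.

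Fabp3, the binding protein, was 183225 and 151641 in MKK3bE early, a change of -0.25 that was not called (adjusted p = 0.53). Acadm had a change of -0.74 (adjusted p = 0.0519), Hadha of -0.78 (adjusted p = 0.0964) and Ppargc1a of -1.36 (adjusted p = 0.0677). Pdk4 was 46924 and 77129, above the 3 female controls at 32202, 37960 and 32431, with a change of 0.82 (adjusted p = 0.379). Leaving out control female 1 or the MKK3bE array 2 left no call, leaving out MKK3bE array 1 left 1, and control female 4 or 2 left 2.

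Late in MKK3bE, 9 of the 31 genes were called lower and none higher, with a median of -0.47, where 5.39% of all genes were called lower. They were Acaa2, Slc27a1, Esrrg, Decr1, Hadh, Eci2, Etfb, Acadm and Etfa, and 18 of the 31 were at an unadjusted p under 0.05. On 12 genes all 5 late arrays were below all 6 controls, as on 5.69% of all genes. Acaa2 was 29370 and 35791 on the female late arrays and 28358, 46666 and 37075 on the male ones, against 52676 to 82620 in the controls, and changed by -1.03 (SE 0.26, adjusted p = 0.0136). Decr1 fell 1.56-fold (adjusted p = 0.0329) and Slc27a1 1.71-fold (adjusted p = 0.0407). Fabp3 had a change of -0.11 (adjusted p = 0.667), and Pdk4 of 0.73 (adjusted p = 0.202), with 31637 and 40984 on the female late arrays and 45848, 49653 and 64136 on the male ones.

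The late MKK3bE calls were few and near the threshold. Leaving out 1 array gave from 0 calls, without MKK3bE female late 2, to 5, without MKK3bE male late 3. The others were 2 without MKK3bE female late 3, 1 without male late 2, 4 without male late 4, 2, 3 and 2 without control male 1, 2 and 5, and 3, 4 and 1 without control female 4, 1 and 2. Acaa2 was called in 19 of 21 settings and Etfa in 4. None of the MKK3bE or shared control arrays is among those in doubt. Of the markers, 0 of 12 cardiac muscle genes were called in MKK3bE at either time, with medians of -0.30 early and -0.18 late, and 4 of 9 fibroblast genes were called higher at each time, where 3.48% of all genes were early and 5.06% late. The summed fibroblast markers were 437076 to 504118 on the MKK3bE early arrays and 175137 to 241696 in the female controls, and their part in the results was not tested.

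**Figure D4:**
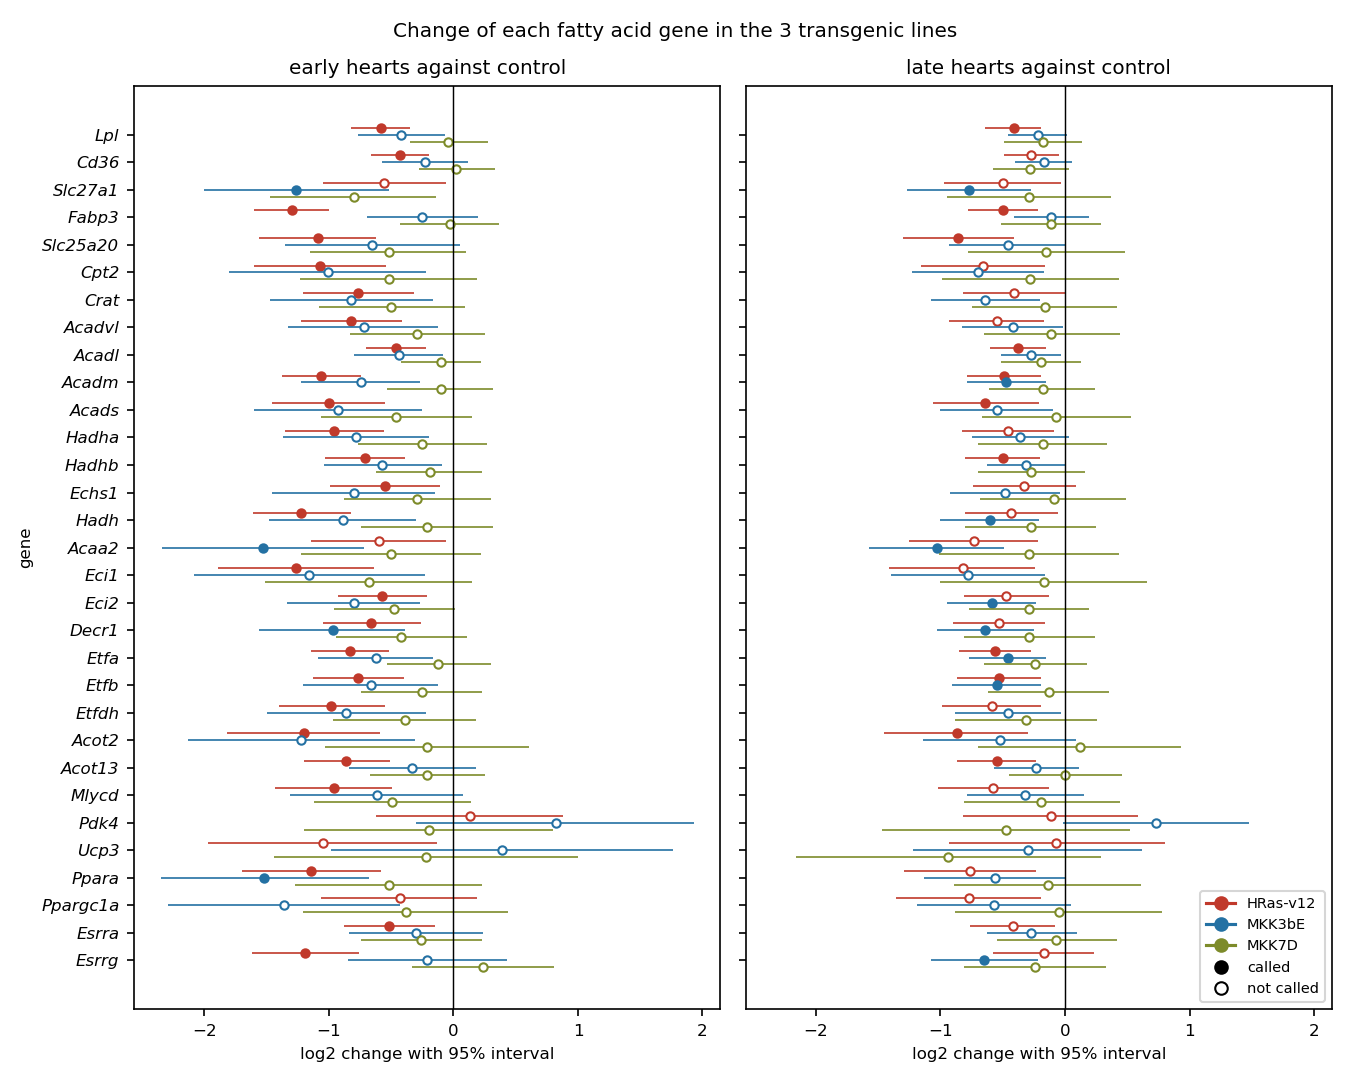
Log2 change of each of the 31 fatty acid genes against control, early and late, in HRas-v12, MKK3bE and MKK7D, with 95% intervals; filled points were called. Fabp3 stands at -1.30 early in HRas-v12 and near 0 in the other lines, Acaa2 at -1.53 early in MKK3bE, and Pdk4 is right of 0 in MKK3bE at both times without being called.

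Between late and early MKK3bE females 0 of 31 genes were called by limma, with none at an unadjusted p under 0.05 and a median of 0.10, where 0.00792% of all genes were called. In the late change of MKK3bE, males and females also gave 0 calls and none at an unadjusted p under 0.05, where 0.00792% of all genes were called. The median difference was 0.39, and the female median of -0.64 stood beside a male median of -0.23. Pdk4 changed by 0.08 in females and 1.38 in males, and Slc27a1 by -1.26 and -0.28.

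HRas-v12 and MKK3bE were also set directly against each other, where no gene passed with all arrays in. Early, in females, 0 genes were called by limma and 3 were at an unadjusted p under 0.05, where 1.81% of all genes were called. These were Ppargc1a (1.45 higher in HRas-v12, adjusted p = 0.15), Slc27a1 (0.82, adjusted p = 0.349) and Echs1 (0.78, adjusted p = 0.311). Without the arrays in doubt these differences were 0.58, 0.54 and 0.42. Late, 0 were called and 3 were at an unadjusted p under 0.05, where 3.95% of all genes were called, namely Fabp3 (-0.39, adjusted p = 0.144), Pdk4 (-0.84, adjusted p = 0.215) and Esrrg (0.48, adjusted p = 0.219). Without the 6 arrays in doubt, the early HRas-v12 group was 1 female array, assumed to vary like the other groups. Fabp3 was then lower in it than in MKK3bE early by a log2 difference of -0.76 (adjusted p = 0.0115) and Ucp3 by -2.38 (adjusted p = 0.0403), where 2.6% of all genes were called lower. Late, with 1 male HRas-v12 array left, Crat (0.59, adjusted p = 0.027) and Esrrg (0.72, adjusted p = 0.0203) were higher in HRas-v12, where 3.19% of all genes were. For Ucp3, HRas-v12 female early 1 was at 982 while the MKK3bE early arrays lay far apart, at 2669 and 10258. The 2 lines share their control arrays, so their changes against control are not independent.

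In MKK7D, no fatty acid gene passed the test at either time. Early, 0 of 31 were called by limma and 1 was at an unadjusted p under 0.05, where 0.135% of all genes were called in either direction, and the median was -0.26. That gene was Slc27a1, with 5218, 3894 and 4009 in MKK7D against 7444, 6276 and 9371 in its early controls, so that all transgenic arrays were lower (-0.80, adjusted p = 0.342). All 3 arrays were below all 3 controls for 17 genes, as for 12.1% of all genes. Eci1 had a change of -0.68 (adjusted p = 0.575), Fabp3 of -0.03 and Esrrg of 0.24. With only the MKK7D arrays and their early controls in the fit, 2 genes were called. Against the shared female controls, the early MKK7D controls gave no call by limma (0 of 31 genes, 1 at an unadjusted p under 0.05, median -0.18, where 1.47% of all genes were called).

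Late, 0 of 31 were called in MKK7D by limma, none was at an unadjusted p under 0.05, 0% of all genes were called and the median was -0.18. Cd36, with 61822, 68311 and 72252 against 83109, 72990 and 89383, was the only gene lower on all arrays, as 5.53% of all genes were. The late controls were split. Hadha was 45874 and 35637 on the arrays labelled late control 8 and 9 and 77383 on late control 10, against 42657, 49101 and 41402 in MKK7D late, and Acaa2 was 32358 and 23051 beside 66566, against 28687 to 31130. Late control 10 was above both other late controls in 29 of the 31 genes, as in 42.1% of all genes, and above all late MKK7D arrays in 30, as in 32.9%. The 2 lower controls are those with Esr1 signals in the transgenic range.

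Without the arrays in doubt, which leaves late control 10 as the lone control, assumed to vary like the other groups, 11 genes were called lower in MKK7D late and the median was -0.67, where 1.17% of all genes were called lower and their median was 0.00. In the same fit 3 of 9 fibroblast markers were called higher, and their part in the result was not tested. The fatty acid genes called lower were Slc27a1, Cpt2, Hadha, Hadhb, Acaa2, Eci1, Decr1, Etfa, Etfdh, Mlycd and Ucp3. Hadha was at -0.81, Etfa at -0.61 and Acaa2 at -1.14. Between late and early MKK7D, 0 of 31 genes were called by limma and none was at an unadjusted p under 0.05, where 0.0158% of all genes were called, with a median of 0.19 that became -0.40 without the arrays in doubt.

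Neighbouring lipid pathways moved to different extents early in HRas-v12, where 18.7% of all genes were called lower and 15.1% higher. All 17 citric acid cycle genes tested were called lower (median -0.56), among them Idh2, the mitochondrial NADP-dependent isocitrate dehydrogenase, by 1.01 (SE 0.18). All 4 tested genes of ketone body use were called lower, with Oxct1, the transferase that activates acetoacetate, at -0.72. Peroxisomal oxidation had 8 of 17 lower (median -0.41) and triglyceride storage and release 9 of 19 (median -0.44), where Plin5, a lipid droplet protein of oxidative tissue, fell 4.48-fold (adjusted p = 0.00018) and G0s2, an inhibitor of the triglyceride lipase, 2.33-fold (adjusted p = 5.28e-05). Of the other uptake, activation and shuttle genes 12 of 25 were called lower and 4 higher, the latter near the share of all genes. Fabp4 fell by 0.75 (SE 0.14) and Acot9, a mitochondrial thioesterase, rose by 1.06 (SE 0.16).

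Among the lipid lists, fatty acid synthesis was the one with more genes called higher than lower early in HRas-v12, 5 against 2 of 14. Its median was 0.38, and over all genes 15.1% were called higher and 18.7% lower. Elovl1, an elongase, rose by 0.86 and Fads2, a desaturase, by 0.99, while Acacb, which makes malonyl-CoA at mitochondria, fell by 1.19 and Thrsp, a protein of lipid synthesis, by 2.04. With the arrays in doubt left out, the counts were 7 higher and 3 lower here, 9 lower in peroxisomal oxidation, 13 lower and 2 higher in triglyceride storage and release, and 14 lower and 6 higher among the other uptake genes. Of 21 further regulators, 14 were called lower and 1 higher, with or without those arrays. Klf15, a Krüppel-like factor of cardiac lipid metabolism, fell 8.08-fold (adjusted p = 3.08e-05), and Esrrb, the remaining estrogen-related receptor, 2.21-fold. From early to late in HRas-v12, Klf15 rose by 2.32 (SE 0.43, adjusted p = 0.00125) and Esrrb by 0.91 (adjusted p = 0.00331). These rises were 3.39 and 1.19 without the arrays in doubt. Between the same times, the citric acid cycle median was 0.15 with all arrays and 0.49 without those in doubt. The macrophage marker median was -0.19 and -1.14, and that of cardiac muscle 0.17 and 0.37.

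In late HRas-v12 the calls in these lists were fewer, where 4.66% of all genes were called lower. G0s2 fell by 0.82, Plin5 by 1.13, and 6 of 17 citric acid cycle genes were called lower, and Pdk3, a pyruvate dehydrogenase kinase, rose by 2.16 (SE 0.53, adjusted p = 0.018). Without the arrays in doubt G0s2 was still called at -0.72 (adjusted p = 0.0311), while Plin5 (-0.73, adjusted p = 0.104) and Pdk3 (1.16, adjusted p = 0.104) were not, and 1 of 17 citric acid cycle genes was called. In MKK3bE early, G0s2 fell by 1.36, Mgll, the monoglyceride lipase, by 1.09, and Dgat2, an enzyme of triglyceride synthesis, by 1.96, and Acot9 rose by 0.94. In MKK3bE late, Abcd3 and Ehhadh, of peroxisomal oxidation, fell by 0.48 and 0.83, Sirt3, a mitochondrial deacetylase, fell by 0.60, and Scd1, a desaturase, rose by 1.03. In MKK7D no gene of these lists was called at either time with all arrays in.

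**Figure D5:**
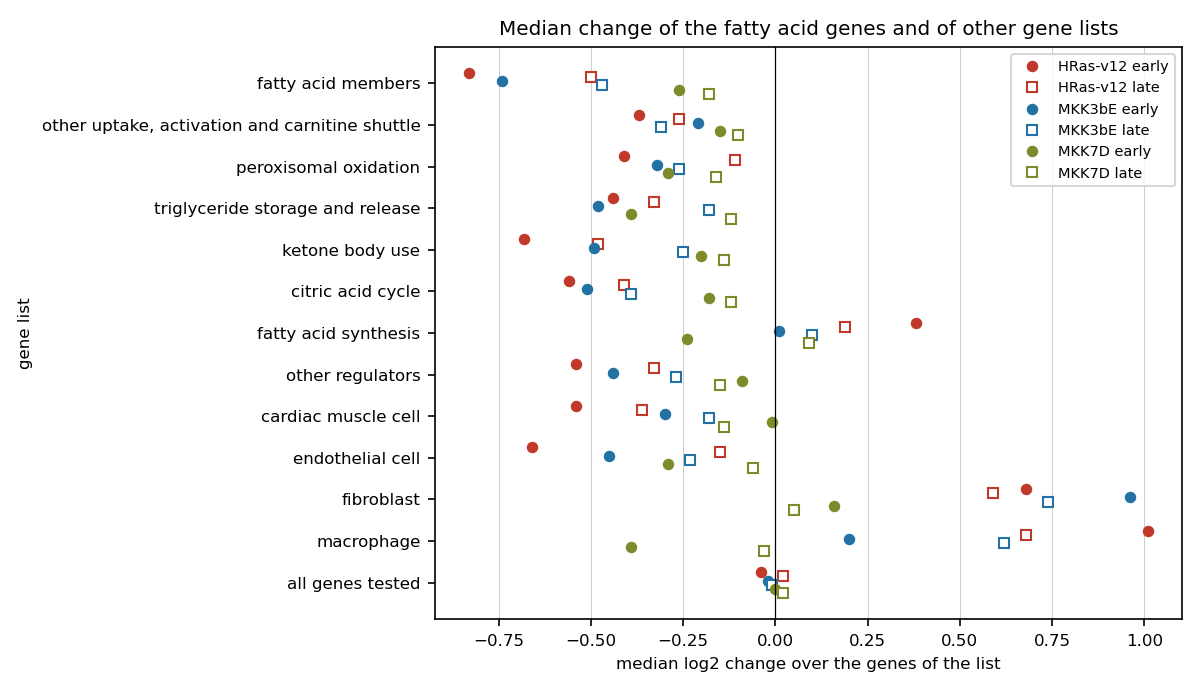
Median log2 change of the 31 fatty acid genes and of the other lists in each of the comparisons with control. Early in HRas-v12 the fatty acid genes are at -0.83, the citric acid cycle at -0.56 and fatty acid synthesis at 0.38.

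The promoters of the fatty acid genes were searched for motifs of their known regulators, because the genes moved together early in HRas-v12. RefSeq windows of GRCm38.p6, from 250 bases before to 50 after each start, were matched for 27 of the 33 genes. On either strand, no window held the estrogen-related receptor element TNAAGGTCA (1.43% of 27025 genes did), the PPAR element AGGTCANAGGTCA (0.0481%) or its looser form with any base in place of the T of each core (0.451%), all of which contain or vary the core AGGTCA. The core itself, searched for after the values had been seen, was in 5 of 27 genes (18.5%), against 18.1% of all genes. These are matches of letters only. They are shown with 10 bases on each side where the window reaches, the core in capitals, on the strand on which it reads.
Acadm, chr3:153944877-153944893, plus strand: cggagcccgaAGGTCAc
Acadvl, chr11:70015500-70015525, minus strand: ggatcaccctAGGTCAggtagaatac
Cd36, chr5:17836109-17836134, plus strand: tgaaaatctcAGGTCAtaaagtgcag
Echs1, chr7:140116489-140116514, minus strand: cagcccgctcAGGTCAcgggtccacc
Ucp3, chr7:100472832-100472857, plus strand: aaagagccccAGGTCAcggaagctaa
Ucp3, chr7:100472937-100472962, plus strand: attaggtttcAGGTCAgctggtgcac

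Among these 5 genes, Acadm, Acadvl, Cd36 and Echs1 were called lower early in HRas-v12 and Ucp3 was not, and Acadm was the only one called in MKK3bE, at the late time. Where a gene had further probe sets above the filter, they mostly gave the same direction: of 28 further probe sets for 18 of the genes, 27 had the same sign as the brightest in HRas-v12 early, 25 in HRas-v12 late, 28 and 27 in MKK3bE early and late, and 19 in MKK7D at each time.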

How the data were processed

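Left ventricular RNA was hybridised to 36 Affymetrix arrays in 13 groups. The deposited values are signal intensities on a linear scale that the authors made with MAS5 (its version not given in the sources consulted), per the submitters' processing notes. The deposited intensities, 0.4 to 271532.1, have the same mean of 2500 on every array after trimming 2% at each end, and array medians of 593.4 to 798.6. That scaling sets all values relative to the whole array, and the number of arrays limits the precision.

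Intensities were taken as log2(signal + 32), so a fold change is on that scale and understates changes of dim genes. Of 45101 probe sets, 34958 carried 1 gene symbol in the platform annotation, 932 several and 9211 none, and 34754 symbols could be updated. The upper 60% by mean log2 value were kept (27022 probe sets, mean log2 of 8.802 or more), and each gene was read from its brightest probe set, giving 12626 genes. Group means were fitted to all 36 arrays with limma 3.58.1 in R 4.3.3 (eBayes with an intensity trend, 23 residual degrees of freedom), with Benjamini-Hochberg adjustment over all genes for each of 15 comparisons. The script was tested on simulated data. The genes, the other lists and the arrays in doubt were chosen with earlier results of these data known. All 33 listed genes are named wherever they stand, and of each other list up to 4 called genes with the smallest adjusted p in a comparison. Other genes named serve to check the labels. Alternatives were 2 further pseudocounts, 2 further normalizations, 2 further filters, the mean over probe sets, fits to the compared groups only, no intensity trend, a replicate block, and leaving out single arrays or the 6 in doubt (for the other lists, chosen after seeing the data). Replicate numbers did not pair the arrays: over 23 same-numbered pairs, deviations from the group means correlated at -0.34 to 0.12, and 3 pairs exceeded 0.1.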

Additional observations from a re-analysis of the deposited data

Results flagged for a closer look

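The change against control differed between the times in HRas-v12, by limma's test of late against early, for Fabp3 (0.80), Acadm (0.57), Hadh (0.79) and Esrrg (1.02), all higher late. The early change in HRas-v12 differed between the sexes for Fabp3 (-1.31) and Esrrg (-1.63), lower in males, where 0.808% of all genes were called lower. The call was kept in 11 of 22 alternative settings for Fabp3 and in 6 for Esrrg. The female group held 2 arrays, among them the doubted array labelled HRas-v12 female early 3. In MKK7D early, Pdk4 had a change of -0.20 and Esrrg of 0.24, against 0.82 and -0.21 in MKK3bE early. On the probe sets used, every MKK7D early array lay on the opposite side of its control mean from every MKK3bE early array. These genes were found by searching all the measured fatty acid genes for this pattern, and the share of all genes that show it was not counted. Pdk4 on MKK7D early 5 was nearly at the control mean, at -0.00. The other probe sets of Esrrg were lower in both lines. They gave -0.16 and -0.37 in MKK7D early and -1.33 and -0.64 in MKK3bE early. The difference between the lines was not tested, and MKK7D has controls of its own while MKK3bE was set against the shared ones. No gene of the 33 was looked at for an outlying array by Dixon's test, since the groups hold 2 or 3 arrays.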

How the results depend on the processing

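No change of a fatty acid gene that was called turned its sign under any alternative run. With quantile normalization the number of genes called lower was 1 in HRas-v12 late and 5 in MKK3bE late. With arrays centred on the median it was 2 in MKK3bE early, 4 in MKK3bE late and 0 for the early HRas-v12 change of males against females. Without a filter it was 5 in HRas-v12 late, 3 in MKK3bE late and 1 for males against females early. With the mean over probe sets it was 5 in MKK3bE late and 0 for males against females early, and without the intensity trend 4 and 1. With only the groups of the comparison in the fit it was 22 in MKK3bE early, 22 in MKK3bE late, 2 in MKK7D early, and 0 in HRas-v12 late, in HRas-v12 late against early and for males against females early. Without the 6 arrays in doubt it was 0 in HRas-v12 late, 11 in MKK7D late (median -0.67), 24 in HRas-v12 late against early (0.71), 2 in HRas-v12 against MKK3bE early (-0.27) and 2 late, 1 for males against females early (-0.21) and 7 late (0.78). The median of MKK7D late against early became -0.40. With the replicate block on the 24 arrays of the shared controls, HRas-v12 and MKK3bE, 11 genes were called in HRas-v12 early and 0 in HRas-v12 late, MKK3bE early, MKK3bE late, HRas-v12 late against early and males against females early. The numbers only name the arrays, so this is no paired result. No paired analysis was possible for MKK7D because its transgenic and control arrays share no replicate number. Centring moved the median of all genes to -0.12 in MKK3bE late against early and to 0.20 in the MKK7D early controls against the shared female controls, and that of the fatty acid genes to -0.04 and 0.04. Quantile normalization moved theirs to 0.01 in HRas-v12 against MKK3bE late. The causes of these shifts were not tested, beyond the fewer arrays in some fits. Shares of all genes called are given above for the fits without the arrays in doubt. They are not given for the other settings, so the counts there do not show whether these genes moved more than all genes.

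Leaving out 1 array at a time gave 15 to 30 calls in HRas-v12 early (median -1.01 to -0.66), 0 to 26 in HRas-v12 late (-0.64 to -0.32), 0 to 2 in MKK3bE early (-0.82 to -0.68) and 0 to 5 in MKK3bE late (-0.53 to -0.40). For MKK7D it gave 0 to 0 calls early (-0.37 to -0.17), late (-0.36 to 0.07) and late against early (-0.11 to 0.38). HRas-v12 late against early gave 1 to 19 calls (0.11 to 0.51), MKK3bE late against early 0 to 0 (-0.09 to 0.26), HRas-v12 against MKK3bE 0 to 1 early (-0.27 to 0.53) and 0 to 1 late (-0.19 to 0.12). Males against females gave 0 to 6 calls in HRas-v12 early (-1.03 to -0.21), 0 to 0 in HRas-v12 late (0.06 to 0.79) and 0 to 0 in MKK3bE late (0.23 to 0.53). The MKK7D early controls against the shared female controls gave 0 to 0 (-0.28 to -0.10). Calls over all genes also moved in these runs, from 132 to 2507 in HRas-v12 late, and are otherwise not given here.

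Groups of 2 or 3 arrays limit every comparison, and 6 arrays go against their labels. In HRas-v12 early, 10 of the 26 calls held in every setting, though not at the same size (Lpl was at -0.12 with quantile normalization): Fabp3, Acadm, Hadh, Esrrg, Etfa, Etfb, Etfdh, Acot13, Lpl and Hadha.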
